A study of Rattus norvegicus with 8 samples.

Results

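The mRNA of 9 collagen chains was compared between injured and undamaged carotid arteries of male Sprague-Dawley rats 2 weeks after the intima was injured. The chains were the short-chain collagens Col8a1, Col8a2 and Col10a1, the FACITs Col9a1, Col12a1, Col16a1 and Col19a1, and the multiplexins Col15a1 and Col18a1. They were chosen by family and found by symbol among the 37209 genes of the count table, and all 9 were present. The injured group was the left carotid artery, injured with a balloon catheter under isoflurane, and the rats weighed 400 g on average. The control group was the undamaged right carotid artery, used as self-control, so that both groups shared strain, sex and anaesthesia, and the labels name no gene modification. Age was not given. Each group held 4 arteries, and the labels did not tie an artery's number to an animal. The design models acute balloon injury in bulk tissue, and the labels name no separation of neointima, media and adventitia, so fewer cells of a type and less RNA per cell cannot be told apart.

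Short-chain collagens have a brief triple helix that ends in a globular domain related to complement C1q, and they assemble into networks rather than banded fibrils. Type VIII collagen is known from vascular smooth muscle and endothelial cells and from Descemet's membrane of the cornea, and type X from hypertrophic cartilage. FACITs are fibril-associated collagens with interrupted triple helices, which sit on the surface of fibrils and link them to other matrix. Multiplexins lie in the basement membrane zone around vessels, muscle and nerves, and their C-terminal fragments include endostatin, which comes from type XVIII collagen and is known for inhibiting the growth of vessels.

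The total count lay between 11459632 and 16658089 per artery, and values are given as CPM, counts scaled to library size. A count of 0 allows a level of up to 3 counts, or 0.18 to 0.262 CPM by raw library totals, for counting error only. Control artery 4 stood apart from the other controls. Its log2 CPM correlated with theirs at 0.83 to 0.852 across genes, against 0.976 to 0.978 among the other controls, and genes are not independent replicates. The summed level of 10 sympathetic neuron genes was 9542 CPM in control artery 4, at most 7.55 CPM in the other controls and 13.9 to 2930 CPM in the injured arteries. A list of 9 brain genes summed to 2365 CPM in control artery 4 and at most 6.81 CPM in the other controls. In the injured arteries the same sum was 11.1 to 596 CPM. Of this list, Neurod6, a marker of cortical neurons, was at most at 0.164 CPM in any artery. In control artery 4 the sum came mostly from Syt1, at 1887 CPM, and Snap25, at 429 CPM. In the same artery Gfap was at 26.8, Camk2a at 19.7 and Rbfox3 at 2.36 CPM. Slc17a7, Gad1 and Gad2 were at most at 0.208 CPM there. The source of these neuron counts was not tested. The extraction note in the labels names a brain region. Contractile smooth muscle genes summed to at least 11620 CPM in every artery.

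Of the 9 chains, 5 were upregulated after injury, 2 were downregulated and 2 were not called. A gene was called where its fold change exceeded 2 and its edgeR FDR, which is the p-value of edgeR's quasi-likelihood test after Benjamini-Hochberg adjustment across the 14359 genes tested, was below 0.05. Log2 fold changes are given as injured minus control, with their standard error (SE). All 9 chains passed the filter on low counts, Col10a1 only through the injured arteries, where it was high. Among all genes tested, 10.9% were called, 8.31% higher and 2.57% lower. The median log2 fold change was 1.98 over the 9 chains and -0.06 over all genes. The CPM of injured and control arteries did not overlap for 7 of the 9 chains, against 23.7% of all genes tested. These are the 7 called chains, and a call from the same values makes such a gap likely. The study lists the called chains as changed on the same arteries, so their count is not independent evidence of a direction. In RT-PCR of injured arteries, the study reported significant rises of Col8a1, Col8a2 and Col12a1 and did not name Col16a1 among the significant genes. Without control artery 4, 5 chains were again called higher and 2 lower, while the share of all genes called went up to 16.2%, 12.3% higher and 3.94% lower. Each of the 7 chains gave p = 0.0286 in the two-sided exact permutation test of its log2 CPM, the smallest p that 4 arteries against 4 allow. After Benjamini-Hochberg adjustment over the 9 chains this was 0.0367. Groups that do not overlap give this p by themselves, so it restates the gap and is no further evidence.

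**Figure D1:**
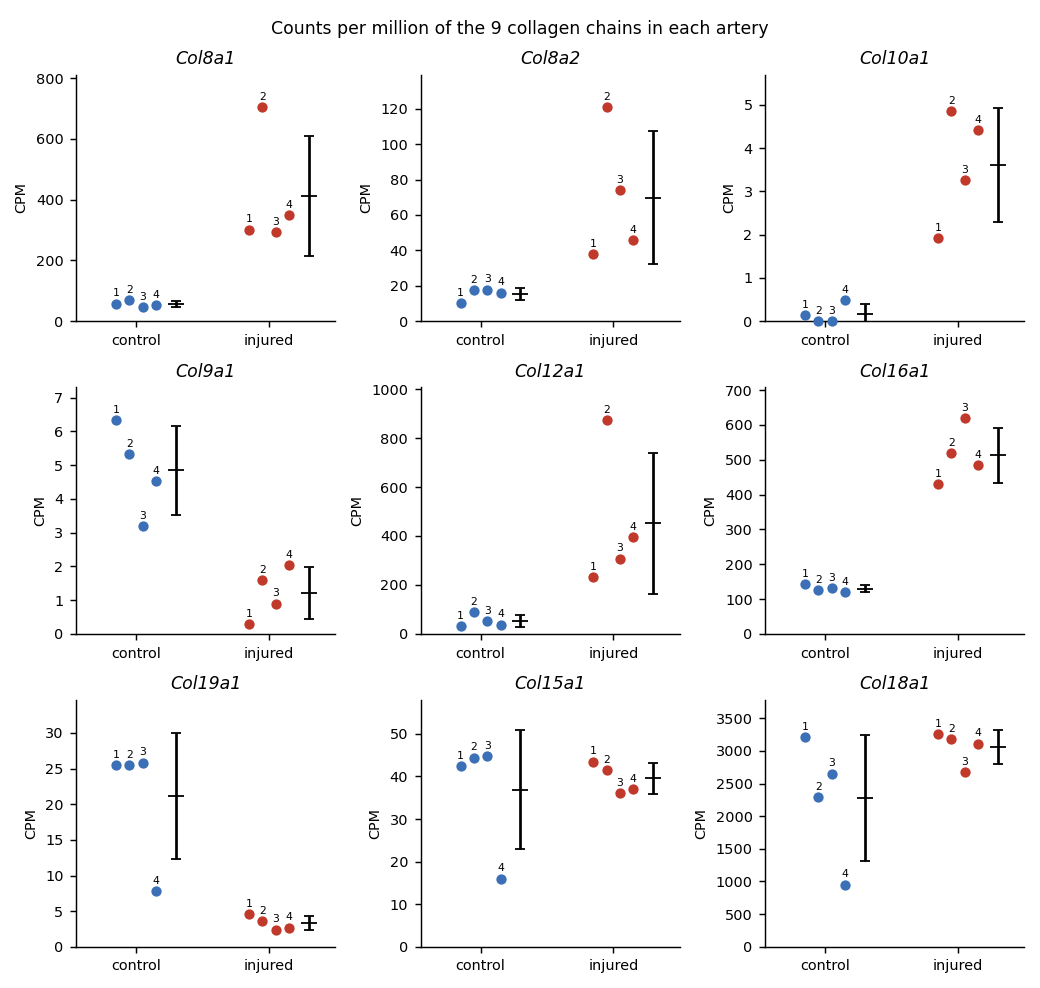
CPM of the 9 collagen chains (vertical axes, each from 0) in the 4 control (blue) and 4 injured (red) arteries, numbered by replicate, with the mean and SD in black. Col16a1 separated most evenly, at 119 to 142 CPM against 431 to 618 CPM, while control artery 4 lay below the other controls for Col15a1, Col18a1 and Col19a1.

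Promoter sequences are given for 3 short-chain chains, because these genes were all upregulated and their promoters differ in base composition. They come from the RefSeq table of the GRCr8 build, on the plus strand at chr11:56246532-56246831 for Col8a1, chr5:143870519-143870818 for Col8a2 and chr20:39737286-39737585 for Col10a1. Each covers 250 bases before the annotated gene start and 50 bases from it. The build behind the counts is not given in the sources used here. Capitals mark matches, on either strand, to the GC box GGGCGG, the RUNX motif TGTGGT and the TATA box TATAAA.
Col8a1: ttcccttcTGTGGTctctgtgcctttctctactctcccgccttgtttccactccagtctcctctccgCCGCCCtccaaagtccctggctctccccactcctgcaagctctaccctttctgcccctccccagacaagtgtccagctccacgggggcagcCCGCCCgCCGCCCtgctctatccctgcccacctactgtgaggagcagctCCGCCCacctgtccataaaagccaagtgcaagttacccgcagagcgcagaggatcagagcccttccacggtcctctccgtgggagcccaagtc
Col8a2: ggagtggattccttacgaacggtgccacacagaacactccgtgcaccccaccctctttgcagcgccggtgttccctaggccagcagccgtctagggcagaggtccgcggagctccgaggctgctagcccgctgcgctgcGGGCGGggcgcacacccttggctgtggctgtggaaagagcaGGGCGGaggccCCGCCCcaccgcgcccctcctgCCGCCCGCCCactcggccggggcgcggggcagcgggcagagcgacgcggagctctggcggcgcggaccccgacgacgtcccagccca
Col10a1: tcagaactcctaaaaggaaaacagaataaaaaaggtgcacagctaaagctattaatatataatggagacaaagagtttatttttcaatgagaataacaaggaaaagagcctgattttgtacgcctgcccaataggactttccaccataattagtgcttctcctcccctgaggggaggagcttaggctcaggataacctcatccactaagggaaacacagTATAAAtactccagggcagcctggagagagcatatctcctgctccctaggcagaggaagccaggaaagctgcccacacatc
The Col8a2 promoter had a GC content of 73.7% and the Col8a1 promoter one of 62.7%, against 44% in the Col10a1 promoter and a median of 51.7% over 33469 promoters. The Col8a1 window held 4 GC boxes and the Col8a2 window 5. The Col10a1 window held no GC box and had its TATA box 31 bases before the start. A GC box occurred in 33.1% of all promoters, a TATA box in 14.2% and the RUNX motif in 17.3%. Promoters of 8 of the 9 chains were in the table, all except that of Col12a1. Of these, 4 had a GC box (Col8a1, Col8a2, Col16a1 and Col18a1), 1 a TATA box (Col10a1) and 1 the RUNX motif (Col8a1). No window held the AP-1 motif TGANTCA, the TEAD motif GGAATG, the SOX9 motif ACAATG or a CArG box, which occur in 7.33%, 14.2%, 13.2% and 1.64% of all promoters. In the Col8a2 window, the last 2 GC boxes share bases and appear as 1 run of capitals.

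Col8a1 encodes the alpha 1 chain of type VIII collagen, the chain on which the study centred. It was at 57.7, 68.2, 46.7 and 53.5 CPM in control arteries 1 to 4, and 301, 704.8, 292 and 348 CPM in injured arteries 1 to 4. Every injured artery was at least 4.28 times as high as the highest control. Injured artery 2 stood alone at the top, and the other injured arteries lay close together. The mean went from 56.5 ± 9.02 to 411 ± 197 CPM (SD, n = 4). Col8a1 rose 7.28-fold (log2 fold change 2.86 with an SE of 0.32, edgeR FDR = 0.00111). Without injured artery 2, the log2 fold change was 2.47 and Col8a1 was still called.

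Col8a2 encodes the alpha 2 chain, which can assemble with the alpha 1 chain or with itself. It was measured at 10.1, 17.3, 17.7 and 16.1 CPM in the controls, and at 37.7, 121, 74.2 and 45.8 CPM after injury. The groups did not overlap, and injured artery 2 was again the highest. Col8a2 rose 4.55-fold (log2 fold change 2.19 with an SE of 0.39, edgeR FDR = 0.00733). A stricter test, against a fold change of 2, did not call it (edgeR FDR = 0.0511). The ratio of the counts of the 2 chains, Col8a1 over Col8a2, asked whether they moved equally, and such a ratio within an artery does not depend on library scaling. The ratio was 5.71, 3.94, 2.63 and 3.31 in the controls, and 7.96, 5.81, 3.94 and 7.59 after injury. The ranges overlapped. On the log2 scale the mean was 1.90 ± 0.47 (SD, n = 4) in the controls and 2.61 ± 0.47 (SD, n = 4) in the injured arteries. The difference of 0.70 gave p = 0.0857 in the two-sided exact permutation test over 70 relabellings (0.0857 after adjustment over 3 ratios), which did not pass.

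Col10a1, the chain of type X collagen and a marker of hypertrophic chondrocytes, was close to the counting floor in the controls. Its count was 2, 0, 0 and 7 in control arteries 1 to 4, and 32, 67, 58 and 54 in the injured arteries. These are levels of at most 0.486 CPM against 1.91, 4.86, 3.26 and 4.42 CPM. Each injured artery was at least 3.93 times as high as control artery 4, the highest control, and injured artery 1 was the lowest of its group. The fitted log2 fold change was 4.41 (SE of 0.86, edgeR FDR = 0.0111), which is imprecise because so few control reads lie behind it, and without control artery 4 the fitted value was 5.96, resting on 2 control counts. In the RefSeq table the Col10a1 gene overlaps the span of Nt5dc1, whose count reached 188, and the strand setting of the counts is not given. Nt5dc1 itself had a log2 fold change of -0.17 (edgeR FDR = 0.617), without a call.

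Markers of cartilage and bone were counted beside Col10a1 and Col9a1. Of 12 cartilage genes tested, 5 were called higher and 1 lower, with a median log2 fold change of 2.49. Acan, the large aggregating proteoglycan of cartilage, had the largest log2 fold change, 6.20 (edgeR FDR = 0.00265), followed by Col11a1, a fibrillar chain that cartilage uses, with 3.78 (edgeR FDR = 0.00652) and Comp with 3.16 (edgeR FDR = 0.0027). Cytl1, a secreted cartilage protein, was the 1 that fell, by 2.92 on the log2 scale (edgeR FDR = 0.000569). Matn1, a defining cartilage matrilin, was listed at 0 in all 8 arteries, and Hapln1 was at most at 0.486 CPM. Summed over the 17 listed genes, the level was 372 to 514 CPM in the controls and 299 to 800 CPM after injury. These sums overlapped, but Cytl1 alone was at 286 to 465 CPM in the controls and 32.6 to 71.1 CPM after injury. It made up most of each control sum and a smaller part of each injured sum, so the overlap rests on this gene. In injured artery 1, Cytl1 was at 71.1 CPM of a sum of 299 CPM. Of 8 tested genes of hypertrophic cartilage and bone, 2 were called higher and 2 lower, with a median log2 fold change of -0.56. Runx2, a transcription factor of these cells, had a log2 fold change of 2.40 (edgeR FDR = 0.00175) and Spp1 one of 1.55 (edgeR FDR = 0.0415). Alpl, the mineralising phosphatase, fell by 3.02 (edgeR FDR = 0.00155). The summed level of this list was 412 to 1152 CPM in the controls and 546 to 1394 CPM after injury. Without control artery 4, the called genes were 8 higher and 1 lower of 12 in the cartilage list, and 2 higher and 3 lower of 8 in the other. The part of such cells in the Col10a1 result was not tested.

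Col9a1 encodes the alpha 1 chain of type IX collagen, a FACIT of cartilage fibrils that is normally assembled from alpha 1, alpha 2 and alpha 3 chains. It went down: its level was 6.34, 5.33, 3.19 and 4.52 CPM in the controls, and 0.299, 1.60, 0.899 and 2.05 CPM after injury. The groups did not overlap, but the lowest control was only 1.56 times as high as the highest injured artery, and the injured counts were 5, 22, 16 and 25. Col9a1 fell by 2.01 on the log2 scale (SE of 0.53, edgeR FDR = 0.0343). Its call was the least stable of the 7. It was lost in 5 of the 8 fits that left out 1 artery, namely without control artery 1 (edgeR FDR = 0.083), control artery 2 (0.0812), control artery 3 (0.0527), injured artery 2 (0.075) or injured artery 3 (0.0787), and its log2 fold change stayed between -2.38 and -1.68. The call was also lost without a filter on low counts (edgeR FDR = 0.0529) and against a fold change of 2 (0.233). A fit with same-numbered arteries as blocks did not call Col9a1 either (edgeR FDR = 0.086).

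The partner chains of type IX collagen had log2 fold changes of the opposite sign. Col9a2, which encodes the alpha 2 chain, was at 0.216, 0.328, 0.416 and 11.5 CPM in the controls, and at 5.86, 26.8, 23.0 and 23.9 CPM after injury. Control artery 4 lay above injured artery 1, so the groups overlapped. Col9a2 was not called (log2 fold change 2.67 with an SE of 1.26, edgeR FDR = 0.193). It was called when control artery 4 was left out, at a log2 fold change of 5.91 (SE of 0.66, edgeR FDR = 0.000694). That fitted value rests on 3, 4 and 6 counts in control arteries 1 to 3, close to the counting floor. Col9a3, which encodes the alpha 3 chain, was measured at 1.08, 0.41, 5.75 and 19.7 CPM in the controls and 12.4, 8.85, 29.8 and 13.7 CPM after injury. Control artery 4 lay above 3 of the 4 injured arteries. Its log2 fold change was 1.26 with all arteries (SE of 1.01, edgeR FDR = 0.442) and 2.72 without control artery 4 (SE of 0.83, edgeR FDR = 0.0397). Control artery 4 was thus the highest control for both partner chains and not for Col9a1.

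Col12a1, the chain of type XII collagen, a FACIT on collagen I fibrils of tendon and other loaded tissue, had the largest fold change of the 4 FACITs among the 9 chains. It was at 32.8, 89.3, 52.5 and 38.2 CPM in the controls, and at 233, 873, 308 and 396 CPM after injury. No artery of one group reached the other group. Control artery 2 and injured artery 2 were the highest of their groups. Col12a1 rose 8.51-fold (log2 fold change 3.09 with an SE of 0.51, edgeR FDR = 0.00539), and the log2 fold change was 2.55 without injured artery 2.

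Col14a1, the chain of type XIV collagen, is the closest relative of Col12a1 in this family and was not called. Its level was 1300, 1425, 1459 and 584.5 CPM in the controls, and 1069, 877, 713 and 818 CPM after injury. The log2 fold change was -0.46 (SE of 0.29, edgeR FDR = 0.337), and the groups overlapped through control artery 4 alone. Without that artery it was -0.69 (SE of 0.14, edgeR FDR = 0.00992), which passed the FDR but not the fold criterion. The count ratio of Col12a1 to Col14a1 moved from 0.0253, 0.0627, 0.036 and 0.0653 in the controls to 0.218, 0.995, 0.432 and 0.484 after injury. Every injured artery had a higher ratio than every control. The mean difference was 3.39 on the log2 scale (exact permutation test, two-sided, p = 0.0286, the smallest that 4 arteries against 4 allow), and it did not pass after adjustment over the 3 ratios (0.0857).

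**Figure D2:**
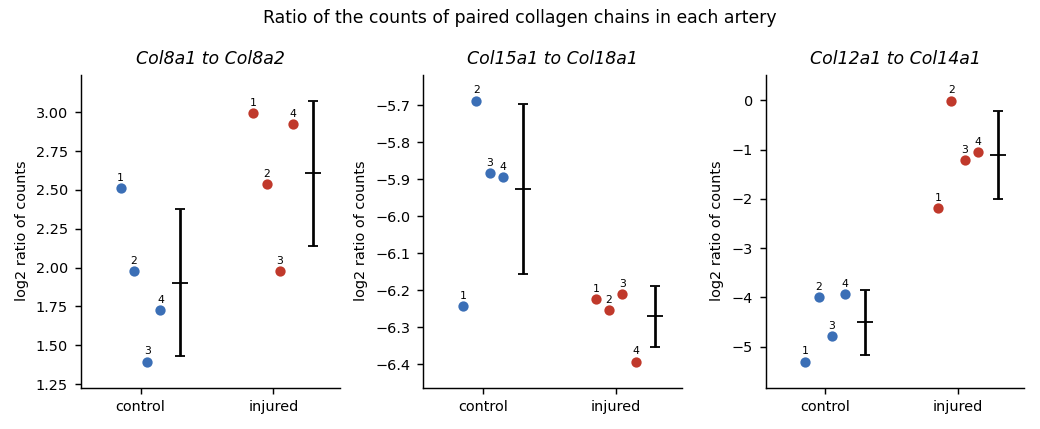
Ratio of the counts of chain pairs (log2, vertical axes, not from 0) in each control (blue) and injured (red) artery, numbered by replicate, with mean and SD in black. The ratio of Col12a1 to Col14a1 did not overlap between the groups, with means of -4.51 and -1.11, whereas the other ratios overlapped.

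Col16a1, the chain of type XVI collagen, a FACIT that joins fibrillar and microfibrillar matrix, changed with the least scatter. Its level was 142, 126, 131 and 119 CPM in the controls, and 431, 518, 618 and 486 CPM after injury. Each group lay within a narrow range, and the gap between them was 3.03-fold. Col16a1 rose 3.95-fold (log2 fold change 1.98 with an SE of 0.15, edgeR FDR = 0.000226). By p-value it ranked 41 among the 14359 genes, although 6.48% of them had a larger absolute log2 fold change. The coefficient of variation was 7.44% over the controls and 15.4% over the injured arteries, against 47.9% and 63.7% for Col12a1. Here injured artery 3, and not injured artery 2, was the highest.

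Col19a1, the chain of type XIX collagen, a scarce FACIT known from basement membrane zones, muscle and nerve, was the most strongly reduced chain. It stood at 25.5, 25.5, 25.8 and 7.85 CPM in the controls, and 4.61, 3.63, 2.41 and 2.70 CPM after injury. The first 3 controls were nearly equal, and control artery 4 lay far below them yet above every injured artery. Col19a1 fell by 2.66 on the log2 scale (SE of 0.42, edgeR FDR = 0.00441). The fall was 2.94 without control artery 4. Of 10 skeletal muscle genes in these arteries, 8 were called higher, with a median of 6.36 on the log2 scale and sums of 84.6 to 253 CPM in the controls and 309 to 1129 CPM after injury. Their part in the Col19a1 result was not tested.

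Both downregulated chains lie next to each other on chromosome 9 in the RefSeq table, with no other protein-coding gene of the count table between them, and their spans do not overlap. The nearest protein-coding neighbours of all 9 chains were therefore tabulated, a step chosen after the values were seen. Of 16 such neighbours that are no member, 14 were tested, of which 1 was called higher and 2 lower. Over all genes tested, 8.31% were called higher and 2.57% lower, and no test set the neighbours against these shares. Fam135a, the neighbour of Col9a1 on its other side, was at 109, 139, 110 and 62.1 CPM in the controls and 49.2, 61.7, 30.7 and 51.5 CPM after injury. It fell by 1.12 on the log2 scale (SE of 0.28, edgeR FDR = 0.0302), with groups that barely parted. Lmbrd1, the neighbour beyond Col19a1, missed the fold criterion with a log2 fold change of -0.62 (edgeR FDR = 0.0478). Cox7a2 fell by 1.01 on the log2 scale beside Col12a1, which rose, and Galnt12 had a log2 fold change of 2.04 beside Col15a1, which was not called.

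The multiplexins were called neither by edgeR, where both had an unadjusted p above 0.05, nor by DESeq2. Col15a1, whose type XV collagen lies at basement membranes of vessels and muscle, was measured at 42.4, 44.5, 44.8 and 16.0 CPM in the controls, and at 43.5, 41.6, 36.1 and 37.0 CPM after injury. Apart from control artery 4, all arteries lay between 36.1 and 44.8 CPM. The log2 fold change was 0.10 (SE of 0.30, edgeR FDR = 0.851, exact permutation p = 0.971). Without control artery 4 it was -0.16 (SE of 0.10, edgeR FDR = 0.29), so the sign turned. In the RefSeq table its span overlaps LOC102551073, whose count reached 109.

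Col18a1, the source of endostatin, was at 3209, 2294, 2650 and 952 CPM in the controls, and at 3256, 3176, 2677 and 3110 CPM after injury. The log2 fold change was 0.42 (SE of 0.34, edgeR FDR = 0.44, exact permutation p = 0.171). Leaving out control artery 4 gave 0.16 (SE of 0.14). In control artery 4 all collagen chains together held 2.47% of the counts, against 6.03% to 6.85% in the other controls and 4.99% to 7.13% in the injured arteries. The count ratio of Col15a1 to Col18a1 was 0.0132 to 0.0194 in the controls and 0.0119 to 0.0135 after injury. Its ranges overlapped through control artery 1, and the mean difference was -0.34 on the log2 scale (exact permutation p = 0.0857, and 0.0857 after adjustment over 3 ratios). This ratio did not set control artery 4 apart, where both chains were low.

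Genes of vessels and of endostatin handling were counted beside the multiplexins. Of 12 endothelial genes, 3 were called higher and 1 lower, with a median log2 fold change of 0.25. Kdr, a VEGF receptor, had a log2 fold change of 2.03 (edgeR FDR = 0.00728) and Emcn one of 1.43 (edgeR FDR = 0.00518), whereas Vwf fell by 1.65 (edgeR FDR = 0.0206). The summed endothelial level was 1001 to 2539 CPM in the controls and 972 to 1380 CPM after injury. Of 8 tested proteases and partners of the endostatin fragments, 4 were called higher and none lower, namely Mmp9 with a log2 fold change of 7.26, Kdr, Gpc1 with 1.38 and Mmp14 with 1.28. The Mmp9 value is imprecise (SE of 1.02, edgeR FDR = 0.0027), with 0, 1, 4 and 0 counts in control arteries 1 to 4. Ctsl, a protease known to release endostatin, was not called, with a level of 341.8 CPM in the controls and 342.3 CPM after injury (edgeR FDR = 0.994). The median of this list was 1.05. Gpc4 was listed at 0 in every artery.

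Of the 8 other chains listed beside the FACITs, 7 were in the table and tested, and 2 were called higher and none lower, Col20a1 and Col24a1, with a median log2 fold change of 1.26. Col20a1, the chain of type XX collagen and a FACIT, was at 5.69, 6.89, 6.51 and 5.63 CPM in the controls, and at 40.9, 58.3, 70.8 and 76.7 CPM after injury. The gap between the groups was 5.93-fold. It rose 9.96-fold (log2 fold change 3.32 with an SE of 0.22, edgeR FDR = 0.000207). Col24a1, a minor fibrillar chain, was at 0.41 to 1.15 CPM in the controls and 1.14 to 6.89 CPM after injury, with a log2 fold change of 2.27 (edgeR FDR = 0.0368) and overlapping groups. Col22a1 and Col27a1 were not called, with -0.47 and 0.52. Without control artery 4, 4 of the 7 were called higher, Col9a2 and Col9a3 beside Col20a1 and Col24a1.

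**Figure D3:**
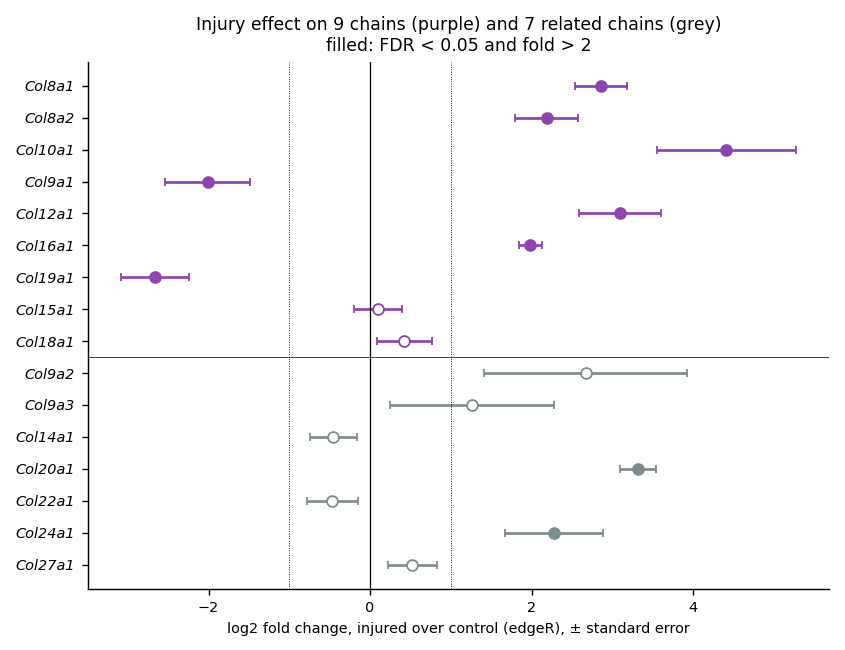
Log2 fold change of injured over control arteries with its standard error (horizontal axis, edgeR) for the 9 chains (purple) and 7 related chains (grey). Filled points passed an FDR of 0.05 and a fold change of 2, and dotted lines mark that fold. Col9a1 at -2.01 lies opposite its partner chains Col9a2 at 2.67 and Col9a3 at 1.26.

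The 9 chains together made up a larger part of the collagen counts after injury. Of 39 collagen chains tested in all, the 9 included, 13 were called higher and 2 lower, with a median of 0.52 on the log2 scale. The chains called lower were Col9a1 and Col19a1. Of the counts of 44 collagen genes, the 9 chains took 5.32%, 3.93%, 4.11% and 4.82% in the controls, and 6.82%, 7.86%, 8.60% and 7.47% in the injured arteries. The means were 4.54% ± 0.64 (SD, n = 4) and 7.69% ± 0.74 (SD, n = 4), and the exact permutation test gave p = 0.0286 (0.0286 adjusted over 2 shares). When Col1a1, Col1a2 and Col3a1 were left out of the denominator, the shares were 19.8% and 22.5% and p = 0.114 in the same exact test, so the groups' shares beside the remaining collagens did not pass. Most of these counts belong to Col18a1, which took 86.2% of the counts of the 9 chains in the controls and 67.7% after injury. The other 8 chains held 0.625% ± 0.27 (SD, n = 4) of collagen counts in the controls and 2.51% ± 0.71 (SD, n = 4) after injury. Col8a1 alone went from 0.087%, 0.1%, 0.0647% and 0.213% to 0.476%, 1.02%, 0.626% and 0.587% (exact permutation p = 0.0286, and 0.0286 adjusted over 2 shares). This p, the same for both shares, is the smallest that 4 arteries against 4 allow. Both shares include chains already called on the same counts, so the p-values are no independent evidence. These shares are of read counts, to which longer transcripts give more, and no transcript lengths were used here. Col4a5 and Col4a6 were listed at 0 in every artery.

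**Figure D4:**
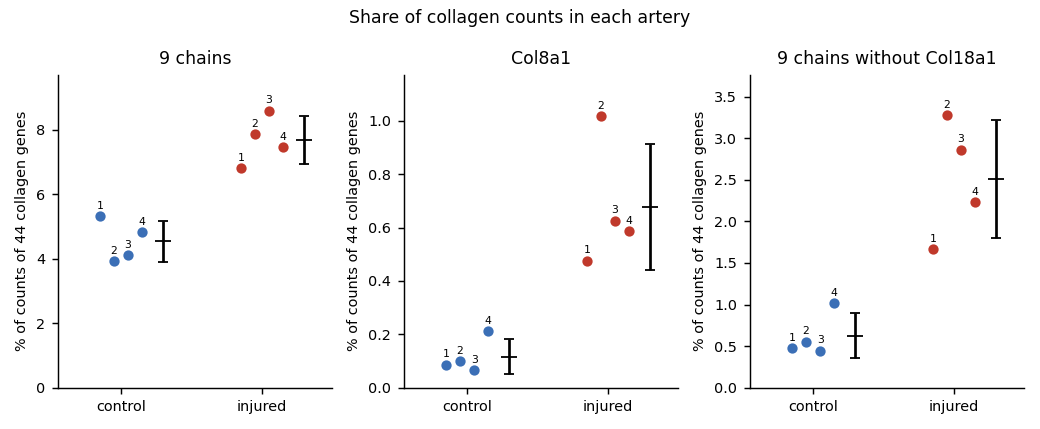
Percent of the counts of 44 collagen genes (vertical axes from 0) held by the 9 chains, by Col8a1 and by the 9 chains without Col18a1, in each control (blue) and injured (red) artery, with mean and SD in black. In each panel all 4 injured arteries lie above all 4 controls.

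Among the arteries, the upregulated chains did not share 1 order. Injured artery 2 was the highest for Col8a1, Col8a2, Col10a1 and Col12a1, and injured artery 3 was the highest for Col16a1. Injured artery 1 was the lowest for Col8a2, Col10a1, Col12a1 and Col16a1. Over all tested genes, those with the pattern most like Col8a1 across the 8 arteries were Pik3ap1, Fcgr1a and Naip6, whose centred log2 CPM had a root mean square difference from it of 0.246, 0.248 and 0.265. Those most like Col19a1 were Sh3bgr, LOC102552946 and Alpl, at 0.198, 0.262 and 0.294. The measure includes the shift between the groups, so it favours genes with a like fold change. The log2 fold changes were 2.8, 2.85 and 3.25 for the genes like Col8a1, and -2.44, -2.29 and -3.02 for those like Col19a1.

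Genes that act on or with these collagens were counted by role. Of 23 tested genes of collagen biosynthesis and folding, 1 was called higher and 1 lower, and the median was 0.21 on the log2 scale. P4ha3, a prolyl hydroxylase subunit, had a log2 fold change of 2.50 (edgeR FDR = 0.00844), and Leprel1, which encodes prolyl 3-hydroxylase 2, fell by 1.38 (edgeR FDR = 0.0138). Serpinh1, the collagen chaperone HSP47, was not called, with 0.04 (edgeR FDR = 0.929). Of 8 tested collagen receptors, Itga2 alone was called, with a log2 fold change of 1.22 (edgeR FDR = 0.00419), and the median of the list was 0.33. Of 10 tested partners at the fibril surface, 5 were called higher and 1 lower, with a median of 1.06. Tnc, which encodes tenascin-C, had a log2 fold change of 4.97 (edgeR FDR = 0.00109) and Postn one of 3.13 (edgeR FDR = 0.00111), whereas Dcn, the proteoglycan decorin, fell by 1.15 (edgeR FDR = 0.0277). Bgn was listed at 0 in every artery.

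Markers of the other cell types that an artery sample can hold moved between the same groups, and their part in the collagen results was not tested. Of 10 contractile smooth muscle genes, none was called higher and 7 lower, with a median log2 fold change of -1.35 and sums of 19080 to 55230 CPM in the controls and 11620 to 18260 CPM after injury. Of 11 macrophage genes, 10 were called higher, with a median log2 fold change of 2.54 and sums of 219 to 327 CPM in the controls and 1900 to 2791 CPM after injury, and of 9 proliferation genes, 9 were called higher, with a median of 3.03. The adventitial fibroblast list had 1 of 8 called higher and 2 lower, with a median of 0.00386, and the list of perichondrium, tendon and ligament had 2 of 4 called higher, with a median of 1.88, while Tnmd, the defining tendon marker, was listed at 0 in all arteries. In edgeR's test 0 genes of the Schwann cell, sympathetic neuron, brain and adipocyte lists were called, of 8, 4, 4 and 8 tested, while 1, 0, 1 and 2 had an unadjusted p under 0.05 and DESeq2 called 0, 0, 0 and 1. The medians of these lists were 1.00, -1.34, -1.92 and -1.28 on the log2 scale. When control artery 4 was left out, calls in these lists went to 9 lower of 10 for contractile smooth muscle, 8 higher of 9 for proliferation, 3 higher of 8 for Schwann cells, 1 higher of 4 for sympathetic neurons, and 2 higher and 1 lower of 5 for brain, while the macrophage and skeletal muscle counts stayed at 10 and 8.

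**Figure D5:**
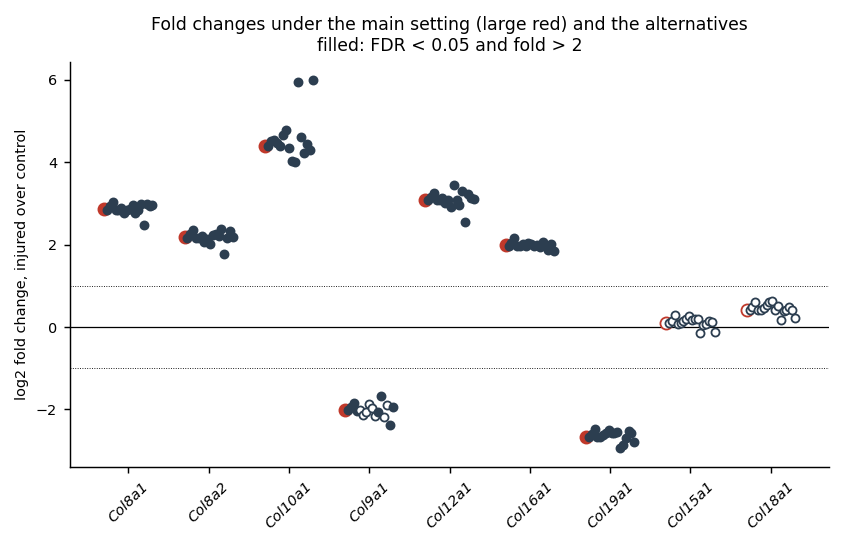
Log2 fold change of each chain (vertical axis, injured over control) with all 8 arteries and the main settings (large red points) and under other scalings, filters, tools, blocks and sets of arteries (small points), without the test against a fold change of 2. Filled points passed an FDR of 0.05 and a fold change of 2. Col9a1 was called in 9 of 17 fits, Col15a1 and Col18a1 in none of 18, and the other 6 chains in every plotted fit that tested them.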

How the data were processed

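mRNA of 4 injured and 4 control carotid arteries was sequenced. The authors deposited raw counts per gene, 1 column per artery, without normalization. Per the labels, HISAT2 2.0.4 was among the tools. The counting tool, genome build, annotation and strand setting are not given in the sources used here, so overlapping genes and near-identical copies are uncertain. Columns were assigned by the label that opens each sample's description.

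With edgeR 4.0.16 in R 4.3.3, filterByExpr (count minimum of 10) kept 14359 of 37209 genes, libraries were scaled by TMM, and injured were compared with control arteries by glmQLFit and glmQLFTest without a covariate. Both criteria of the study (fold change over 2, FDR below 0.05) were required for a call. The study used DESeq, and DESeq2 1.42.0 was an alternative. Standard errors come from the F statistic, CPM uses the TMM factors, and log2 CPM a prior count of 2. Ratios of counts used 0.5 added counts and exact permutation tests. P-values measure the spread between these arteries, since the labels do not say that numbers mark different animals. The tests were tried on simulated counts, drawn for independent arteries without an outlying one. Such counts do not show how the tests handle an artery like control artery 4. Alternatives were other scalings (RLE, upper-quartile, totals only), other filters, the replicate block, each artery left out, the FDR alone, glmTreat at a 2-fold threshold and, after seeing the data, leaving out control artery 4 and injured artery 3 together.

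The 9 chains, the gene lists and the tests were chosen with earlier results of these data known. Named genes are the 9 chains, the related chains, up to 3 called genes with the largest absolute log2 fold change of each other list, the 3 genes most like Col8a1 and like Col19a1, and genes on which a result turns. Cytl1, Hapln1, Dcn, Mmp14, Ctsl, Serpinh1, Col28a1, Cox7a2, Galnt12, Fam135a and Lmbrd1 were chosen after their values were seen. Called genes of the lists for other cell types are given as counts. Symbols were matched without regard to case, then by RefSeq synonyms of the GRCr8 assembly, from which gene neighbours were also read. A floor of 3 counts was 0.18 to 0.262 CPM by raw library totals, without the TMM factors of the other CPM values.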

Additional observations from a re-analysis of the deposited data

Results flagged for a closer look

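In a group of 4 arteries, an artery was singled out where the distance to its closest neighbour, as a share of the group's range, passed Dixon's 95% critical value. The CPM of the 9 chains and 7 related chains, 3 ratios, 2 collagen shares, the total count and the collagen share of all counts were examined in both groups. Among these 46 groups, 4 met this, where chance gives about 2.3. Control artery 4 was far below the other controls for Col19a1 (7.85 CPM against 25.5 in the nearest control, a ratio of gap to range of 0.981) and for Col15a1 (16.0 against 42.4 CPM, ratio 0.914), and far above them for Col9a2 (11.5 against 0.416 CPM, ratio 0.982). Injured artery 2 was far above the other injured arteries for Col8a1 (704.8 against 348 CPM, ratio 0.864).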

How the results depend on the processing

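Col8a1, Col8a2, Col12a1, Col16a1 and Col19a1 were called in all 18 fits with both criteria (the reported one and those with another scaling, filter, tool, block or set of arteries) and Col10a1 in all 17 that tested it, with their direction kept. Across these fits the log2 fold change lay between 2.47 and 3.03 for Col8a1, 1.78 and 2.39 for Col8a2, 4.00 and 5.995 for Col10a1, 2.55 and 3.45 for Col12a1, 1.84 and 2.16 for Col16a1, and -2.94 and -2.47 for Col19a1. Col9a1 was also lost without a filter (edgeR FDR = 0.0529) and had too few counts with at least 10 counts in every sample, as had Col10a1. Col15a1 turned to -0.16 without control artery 4 and to -0.11 without control artery 4 and injured artery 3, and was called in neither. With 1 artery left out it ranged from -0.16 to 0.2017. Against a fold change of 2, Col8a2 (edgeR FDR = 0.0511) and Col9a1 (0.233) were not called. From 5 to 7 of the 9 chains were called under every alternative.

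The number of genes called, 1562, was 1007 with at least 10 counts in every sample, 2468 with the FDR alone, 661 against a fold change of 2, 2473 without control artery 4 and injured artery 3, and 1142 to 2398 with 1 artery left out, highest without control artery 4. The difference in the share of collagen counts, 3.15 percentage points, was 2.72 without Col1a1, Col1a2 and Col3a1 (exact permutation p = 0.114) and 2.84 to 3.43 with 1 artery left out, where 3 arteries against 4 cannot give an exact p below 0.0571. Library totals alone moved the median of all genes by 0.175 on the log2 scale.

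With the replicate block, 1187 genes and 6 of the 9 chains were called, and Col9a1 was not (edgeR FDR = 0.086, and 0.104 with the block and upper-quartile factors). Arteries with a common number deviated from the group means with correlations of 0.301, 0.45, -0.52 and -0.416 for replicates 1 to 4. Of the 4 controls, 1 correlated best with its own number. With 4 arteries per group and control artery 4 far from the others, this check cannot decide whether a common number marks 1 animal. What causes these changes was not tested, apart from fewer genes being tested under the stricter filter. Depth limits Col10a1 and Col9a1, with at most 7 counts in a control and at most 25 in an injured artery.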

Other observations

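Genes of the X chromosome were nearly all listed at 0. Of 606 protein-coding genes that RefSeq places on X in GRCr8 and that match the count table by symbol, 592 (97.7%) had no count in any of the 8 arteries, against 1541 of 16016 (9.62%) on the other chromosomes without Y. Bgn, the proteoglycan biglycan, Gpc4, Tnmd and the basement membrane chains Col4a5 and Col4a6 are listed at 0 in every artery. A value of 0 for such a gene is therefore given only as listed. None of the 9 chains lies on X, and the share of the 9 chains in collagen counts was computed with Col4a5 and Col4a6 at 0.

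Col28a1, a collagen chain of peripheral nerve, had 82, 49, 125 and 5099 counts in control arteries 1 to 4 and 783, 162, 4063 and 306 counts in injured arteries 1 to 4. Every injured artery lay above control arteries 1 to 3 and below control artery 4. It was not called with all arteries (log2 fold change -0.26, edgeR FDR = 0.927) and was called higher without control artery 4 (3.65 with an SE of 1.05, edgeR FDR = 0.0331).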
